A study of Mus musculus with 2 samples.

Results

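Keratins are the intermediate filament proteins of epithelial cells. The 53 probes of 25697 whose symbol starts with KRT and a digit were taken as members, on both arrays. They represent 46 of 16717 genes: 5 keratins of simple epithelium (Krt7, Krt8, Krt18, Krt19 and Krt20), 6 of squamous epithelium (Krt1, Krt4, Krt5, Krt10, Krt13 and Krt14), 13 other keratins of stratified epithelia, 19 of hair and its root sheath and 3 others. The probe for Krt1 carries the old symbol KRT2-1, which is a synonym of Krt1 alone, and 4 further keratin genes listed under names of another kind were not used.

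Total RNA came from the glandular stomach of female mice aged 26 weeks, labelled AGR2 wild-type or AGR2 null, with 1 Illumina MouseRef-8 v2 bead array for each label. The labels give neither the strain nor the design of the null allele. The series title speaks of a single null mouse, and how many animals lie behind the wild-type-labelled array is not stated. No difference therefore had a replicate check, no test of genotype was possible, and differences are described by their size.

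Keratin filaments are built from obligate pairs of a type I (acidic) and a type II (basic) protein. As background, glands and ducts lined by a single layer of cells use Krt8 with Krt18, and add Krt7, Krt19 or Krt20 by site. Stratified squamous epithelia use Krt5 with Krt14 in the basal layer, and above it Krt1 with Krt10 where the surface cornifies or Krt4 with Krt13 in moist mucosa. In mice the squamous forestomach borders the glandular stomach.

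The Agr2 probe read 972 and 3406 (wild-type-labelled array first, as for every pair of signals that follows), 3.13-fold higher on the null-labelled array, against its label. Where this probe lies relative to the deletion is not stated, and outside the deleted part it checks nothing. The gastric mucous cell genes Gkn1 and Tff2 exceeded 40000 on both arrays, as the tissue label implies. Both were picked from a list of 7. Some others on it differed between the arrays, among them Muc5ac (39881 and 2669) and Gkn3 (2368 and 47368). Xist was at least 7.59-fold higher on the null-labelled array and Y-linked Eif2s3y at least 9.21-fold higher on the wild-type-labelled array, although both samples are labelled female. Y-linked Kdm5d was at least 1.33-fold higher on the wild-type-labelled array. Y-linked Ddx3y read 5332 and 2138, and so was detected on both arrays. Genotype label and sex cannot be told apart with 1 array each, and arrays are named by their labels throughout. Whether the labels were exchanged was not tested, and an exchange would reverse every direction by genotype. Median probe signals were 169 and 187. Background was read from 1314 probes for olfactory and vomeronasal receptors, with a 99th percentile of 200.4 on the wild-type-labelled array and 227 on the null-labelled array. A gene was called detected where under 1% of these probes were as bright.

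Promoters of keratins from both classes are shown first. From the simple keratins these are Krt7 and Krt20, the members at least 2-fold higher on the null-labelled array. From the squamous keratins they are Krt10 and Krt13, the members still detected there. Each line is the 250 bases before a RefSeq start on GRCm38.p6, read 5′ to 3′. Capitals mark the TATA box (TATAAA), searched on the gene's strand alone, and 4 factor motifs searched on both strands, so that a match can read as the reverse complement. The motif of GATA factors was searched as AGATAA. For AP-1 the letters were TGANTCA, where N is any base. For Sp1 they were GGGCGG, and the CACCC box bound by Klf factors was CCACCC. The motifs were chosen with the members' values known, and a base can belong to matches of more than 1 motif.
Krt7, chr15:101412153-101412402, plus strand: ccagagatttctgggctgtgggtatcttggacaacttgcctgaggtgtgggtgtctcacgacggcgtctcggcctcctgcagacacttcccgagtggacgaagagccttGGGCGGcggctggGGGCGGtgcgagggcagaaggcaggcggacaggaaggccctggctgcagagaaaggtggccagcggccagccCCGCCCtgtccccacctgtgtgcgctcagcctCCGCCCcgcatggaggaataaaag
Krt20, chr11:99438154-99438403, minus strand: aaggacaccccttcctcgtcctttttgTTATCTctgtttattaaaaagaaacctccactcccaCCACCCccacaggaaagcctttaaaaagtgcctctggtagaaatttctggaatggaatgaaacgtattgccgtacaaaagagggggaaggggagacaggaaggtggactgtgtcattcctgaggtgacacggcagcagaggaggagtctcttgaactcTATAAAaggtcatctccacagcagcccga
Krt10, chr11:99389365-99389614, minus strand: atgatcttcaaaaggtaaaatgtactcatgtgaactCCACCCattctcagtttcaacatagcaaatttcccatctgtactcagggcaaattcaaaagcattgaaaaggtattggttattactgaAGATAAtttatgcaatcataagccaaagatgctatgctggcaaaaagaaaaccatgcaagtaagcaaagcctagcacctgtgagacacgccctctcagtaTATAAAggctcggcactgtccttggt
Krt13, chr11:100121567-100121816, minus strand: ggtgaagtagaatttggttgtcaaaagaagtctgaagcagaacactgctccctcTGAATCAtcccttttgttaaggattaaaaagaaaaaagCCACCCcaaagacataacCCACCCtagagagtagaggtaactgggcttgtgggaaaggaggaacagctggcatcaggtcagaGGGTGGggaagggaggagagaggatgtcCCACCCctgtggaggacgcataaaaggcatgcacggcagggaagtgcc

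The Krt20 and Krt10 windows each hold 1 TATAAA, 29 and 26 bases before the start. That motif was found in 7.59% of 32851 promoter windows of the table and in 12 of the 32 windows matched to keratin members. Only 2 of those 12 belong to keratins detected here, which have 12 windows for 11 genes. The Krt7 window has no TATAAA but 4 Sp1 motifs and 16 CpG dinucleotides, against a median of 6 CpG over all windows, and 32.7% of all windows hold the Sp1 motif. The Krt13 window shown has 4 CCACCC and 1 AP-1 motif, found in 28.1% and 6.75% of all windows. A second RefSeq start of Krt13 has 2 AP-1 motifs and no CCACCC. No window was matched for Krt19, Krt1 or Krt4, and the 5 windows of squamous keratins cover 4 genes, with Krt13 counted at both starts. The windows of Krt10 and Krt14 and the second of Krt13 lie inside the span of their gene. The Klf motif was in 2 of 4 windows of simple and 3 of 5 windows of squamous keratins, and the TATA box in 1 window of each. AP-1 was in 0 of the 4 and 2 of the 5, both of Krt13, Sp1 in 1 and 0, and the GATA motif in 2 and 1. The median number of CpG was 8.5 in the simple and 2 in the squamous windows. These matches describe the sequence only.

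Detection on at least 1 array was reached by 19 of the 46 keratin genes, by 10 on both and by 9 on the wild-type-labelled array alone. None was detected on the null-labelled array alone. Among the 19, 11 were at least 2-fold lower on the null-labelled array, 2 at least 2-fold higher and 6 within 2-fold. Over all 9274 genes detected on at least 1 array, 17.1% were at least 2-fold lower and 13.0% at least 2-fold higher. Where a gene was below background on an array, its log2 difference at the bound sets it to the lowest detected level of that array, after background correction. Counted at the bound, keratins were again 11 lower and 2 higher, against 13.6% and 10.6% of all genes. Folds of genes detected on both arrays are after background correction, which enlarges those of dim signals. For a gene below background, a fold written as at least N is the lowest of that bound, the same without background correction and the same in the deposited signals. By this lowest bound 10 keratins were at least 2-fold lower and 2 higher, against 6.37% and 6.71% of all genes, and Krt6b was the 1 no longer counted.

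**Figure D1:**
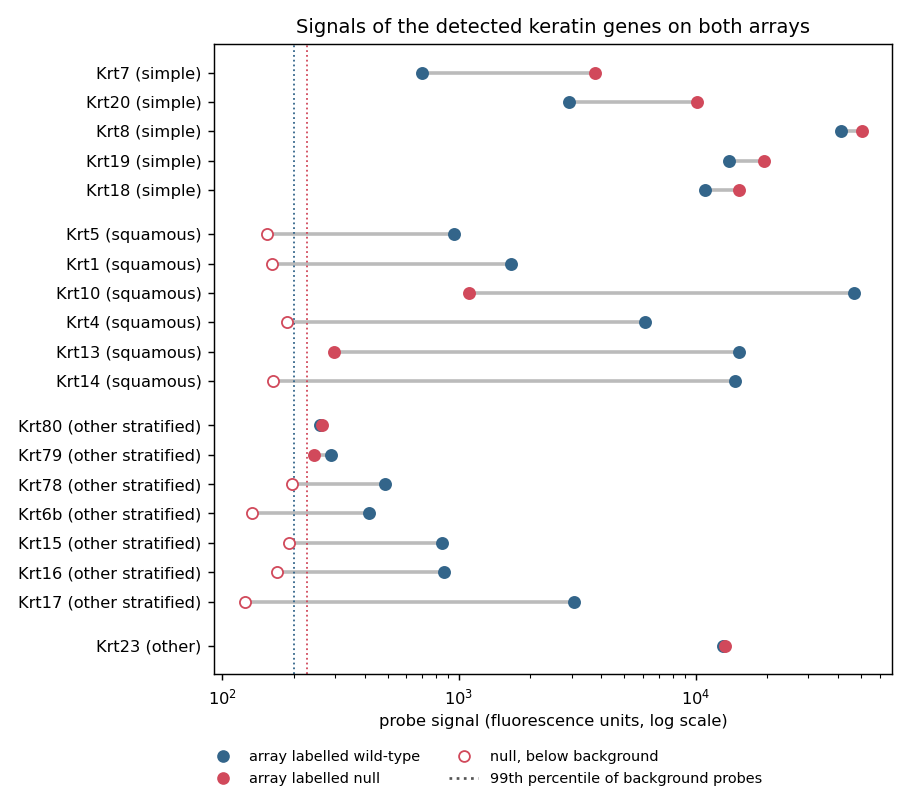
Deposited probe signals (fluorescence units, log axis) of the 19 detected keratin genes on the wild-type-labelled array (blue) and the null-labelled array (red, hollow where below background), by keratin class. Dotted lines mark the 99th percentile of the background probes of each array, 200.4 and 227. All 5 simple keratins lie to the right on the null-labelled array, and all 6 squamous keratins far to the left.

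The simple keratins were close to level or higher on the null-labelled array. Krt8, the type II keratin of nearly all simple epithelia, read 41211 on the wild-type-labelled array and 50304 on the null-labelled array. Its obligate partner Krt18 read 10921 and 15315. Krt19, a type I keratin of ducts and of gastric and other gut epithelium, read 13860 and 19483. All 3 signals were higher on the null-labelled array before normalization, and after it the log2 differences were 0.34, 0.31 and 0.31. Krt8 exceeded 40000 on both arrays, where bead signals approach their ceiling and differences are compressed. Over 14 alternative ways of processing that kept Krt8, its log2 difference ran from 0.10 to 0.34, so the reported value is the highest.

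Krt7 and Krt20 stood apart from these 3. Krt7, a type II keratin of ductal and other simple epithelia, read 701 and 3760, 5.01-fold higher on the null-labelled array (log2 difference 2.32). Krt20, a type I keratin that marks differentiated gastrointestinal epithelium including gastric surface cells, read 2912 and 10127, 3.08-fold higher (1.62). Each was well above background on both arrays, and over 15 alternative ways of processing their log2 differences ran from 2.14 to 2.45 for Krt7 and from 1.55 to 1.66 for Krt20. The median of the 5 simple keratins was 0.34. With Krt8 and other genes over 40000 left out it was 0.97.

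Of 15 detected columnar epithelium genes on a list of 16, 2 were at least 2-fold higher on the null-labelled array and 13 within 2-fold, with a median log2 difference of 0.31. That is 13.3% of the 15, near the 13.0% of all detected genes. Within 2-fold, differences ran in both directions, from the transcription factor Gata4 at -0.69 to the mucin Muc1 at 0.99. Villin (Vil1), the actin bundler of microvilli, read 674 and 4277, 5.99-fold higher. The tight junction protein Cldn7 read 235, little above background, and 709, 3.86-fold higher, or 2.53-fold without background correction. The summed signal of this list was 87604 on the wild-type-labelled array and 138856 on the null-labelled array, and that of the simple keratins 69604 and 98988. In whole tissue, fewer cells of a type and less RNA per cell cannot be told apart, which holds for every list.

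All 6 squamous keratins were lower on the null-labelled array, and the median log2 difference was -6.20, or -5.89 at the bounds. Their summed signal was 85427 on the wild-type-labelled array and 2067 on the null-labelled array. The difference of the medians, squamous minus simple keratins, was -6.54 on the log2 scale. Over all detected genes the median difference was 0, with a 5th percentile of -2.39.

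The basal pair was below background on the null-labelled array. Krt14, the type I keratin of basal cells, read 14714 and 164, at least 64.7-fold lower. Krt5, its type II partner, read 949 and 154, at least 4.17-fold lower. The Krt5 bound is the smaller because its signal started nearer to background, so the bounds do not rank the 2 genes.

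The suprabasal pair of cornifying epithelium went the same way. Krt10, the type I member, read 46758 and 1103, 52.6-fold lower, with the first signal near the ceiling. Krt1, the type II member, read 1665 and 163, at least 7.32-fold lower. Krt10 thus stayed well above background on the null-labelled array, while Krt1 did not.

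Both genes of the mucosal suprabasal pair were also lower. Krt13 (type I) read 15218 and 295, 102-fold lower after background correction and 51.6-fold in the deposited signals. Krt4 (type II) read 6123 and 188, at least 26.9-fold lower. The Krt13 signal on the null-labelled array lay little above background. Its log2 difference of -6.68 became -5.88 at the weakest of the alternatives.

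Further keratins of stratified epithelia followed in part. Of the 13, 7 were detected, 5 of them at least 2-fold lower and on the wild-type-labelled array alone. The median of the 7 was -3.34, or -2.15 at the bound. Krt17, a type I keratin of skin appendages that is induced by injury, read 3059 and 125, at least 13.4-fold lower. Krt16, a type I keratin of stressed epidermis, read 864 and 170, at least 3.80-fold lower. Krt15, a type I basal keratin, read 849 and 191, at least 3.73-fold lower.

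Krt78, a type II keratin of stratified epithelium, read 487 and 196, at least 2.14-fold lower. Krt6b, a type II wound keratin, was read by 2 probes with signals of 418 and 473 on the wild-type-labelled array and 134 and 107 on the null-labelled array, at least 1.84-fold lower by the probe used. Krt6a was below background on both arrays. Krt6a and Krt6b are near copies, as are parts of Krt14, Krt16 and Krt17, so cross-hybridization makes the values of single members uncertain.

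The other 3 detected keratins were within 2-fold. Krt23, a type I keratin of several glandular and gut epithelia, read 13091 and 13363 (log2 difference -0.13), well above background on both arrays. Type II Krt79 read 289 and 245 (-0.83), and type II Krt80 read 258 and 264 (-0.34), all 4 little above background. Those 2 differences therefore say little about change.

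The remaining 27 keratins were below background on both arrays. They include all 19 of hair and root sheath: Krt25, Krt26, Krt27, Krt31, Krt32, Krt33a, Krt34, Krt35, Krt36, Krt39, Krt40, Krt71, Krt73, Krt74, Krt75, Krt82, Krt83, Krt84 and Krt86. The others were Krt2, Krt6a, Krt9, Krt12, Krt24, Krt77, Krt42 and Krt222. Signals of the 27 ran from 106 to 191 (median 134) on the wild-type-labelled array and from 87.6 to 200.6 (median 141) on the null-labelled array. A bead signal at background gives only an upper limit on expression. RefSeq also lists Krt83 as a synonym of Krt87, so that name is uncertain.

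Partners of a pair can be set side by side by their differences. Krt8 and Krt18 had log2 differences, null-labelled minus wild-type-labelled array, of 0.34 and 0.31, and Krt4 and Krt13 of -6.06 (at the bound) and -6.68. Krt1 and Krt10 were at -4.17 (at the bound) and -5.72. Krt5 and Krt14 were at -3.29 and -7.35, and Krt6b and Krt16 at -1.85 and -3.14, all 4 at their bounds. Krt7 and Krt19, a pair found in ducts, were at 2.32 and 0.31, so the type II member alone was past 2-fold. Type I and type II keratins as groups both held lower and higher members: 6 of 10 detected type I genes were at least 2-fold lower and 1 higher, and 5 of 9 type II genes lower and 1 higher.

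Position in the genome did not sort the differences. Type I genes lie in a cluster on chromosome 11 and type II genes, with type I Krt18, on chromosome 15 in GRCm38.p6. Krt19 (0.31) has the lower keratin genes Krt13 and Krt15 on one side and, past undetected Krt9, Krt14 on the other. Krt20 (1.62) is separated from Krt10 (-5.72) by undetected Krt12 alone. On chromosome 15, Krt8 and Krt18 stand side by side at the cluster's end and had like differences as reported (0.34 and 0.31). Krt78 (at least 2.14-fold lower) is the next keratin gene to Krt8.

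**Figure D2:**
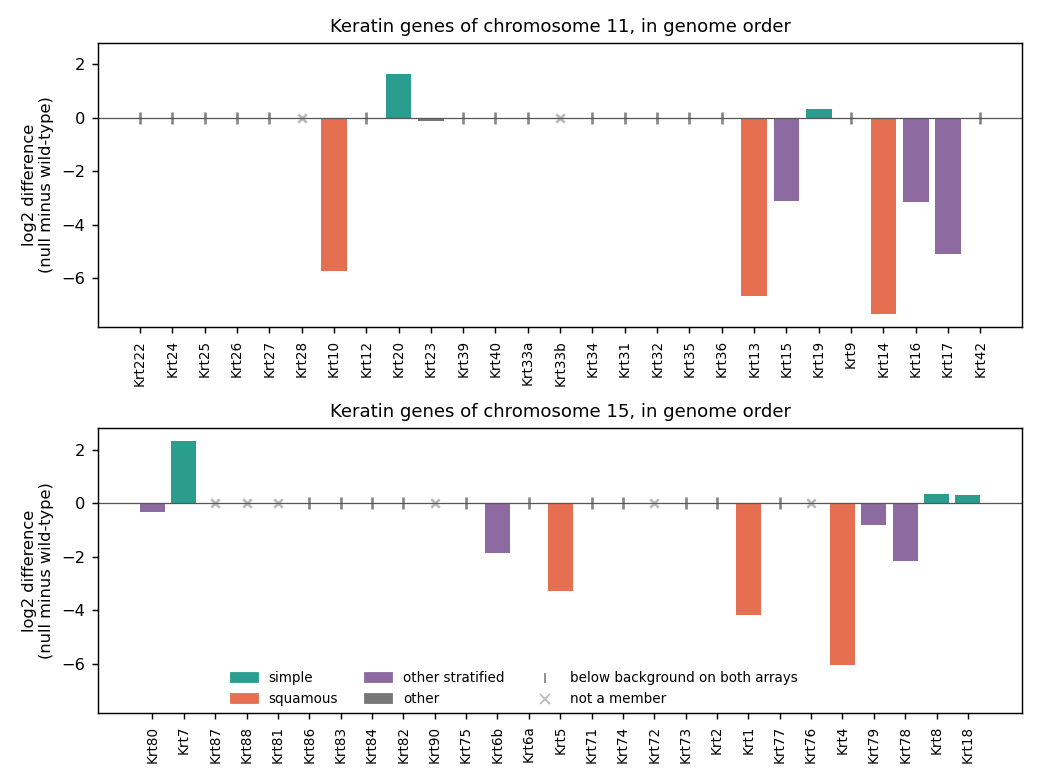
Log2 difference, null-labelled array minus wild-type-labelled array (y axis), of detected keratin genes in genome order (x axis) on chromosomes 11 and 15. Bars are at the background-corrected bound where a gene was below background on an array, and colours give the class. Bars below 0, such as Krt13 (-6.68) and Krt15 (-3.11 at the bound), stand beside bars above 0, such as Krt19 (0.31).

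Markers of squamous cells other than keratins moved with the squamous keratins. Of 20 on the list, all detected, 17 were at least 2-fold lower on the null-labelled array (16 at the bound) and 2 higher, with a median log2 difference of -4.51 (-3.92 at the bound). Their summed signal was 144364 on the wild-type-labelled array and 16739 on the null-labelled array, where 9 of the 20 were below background: Sprr3, Lypd3, Calm4, Lce3a, Sprr1b, Sbsn, Tgm1, Calml3 and Tgm3. Krtdap, a secreted product of differentiating keratinocytes, read 23897 and 232, 256-fold lower, with the second signal at the edge of background. Crct1, a gene of the epidermal differentiation complex, read 11711 and 280, 86.0-fold lower, or 41.8-fold in the deposited signals. Lypd3, a surface protein of squamous cells, was at least 29.4-fold lower. The cornified envelope protein Sprr3 read 3406 and 143, and the calcium-binding protein Calm4 was at least 10.4-fold lower.

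Loricrin (Lor), the main cornified envelope protein, read 54602 and 1114, 60.3-fold lower, with the first signal near the ceiling. Like Krt10, it was still above background on the null-labelled array. The next 3 genes were picked after their values were seen, as was Lor. Involucrin (Ivl), another envelope protein, read 196 (below background) and 646, at least 2.73-fold higher. Ly6d, a surface protein of squamous cells and some other epithelia, read 2738 and 8917, 2.86-fold higher. Stratifin (Sfn), an adaptor protein abundant in keratinocytes, was within 2-fold, at 706 and 932.

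Transcription factors linked to squamous epithelium were lower only in part. Of 14, 10 were detected, 5 at least 2-fold lower on the null-labelled array (2 by the lowest bound) and 1 higher, with a median log2 difference of -0.89. Trp63, which maintains basal squamous cells and drives Krt5 and Krt14 in skin, read 882 and 105, at least 3.88-fold lower. The factors Tfap2c, Pitx1 and Tfap2a were at least 2.08-fold, 1.59-fold and 1.42-fold lower, and Ovol1, a factor of keratinocyte differentiation, was 2.11-fold lower. Klf5, which is active in both squamous and glandular epithelium, read 6330 and 15130, 2.11-fold higher.

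Proteins that anchor keratin filaments divided by gene. Of 13 desmosome genes 7 were detected, 3 at least 2-fold lower on the null-labelled array (2 at the bound, 1 by the lowest bound) and none at least 2-fold higher (median -0.26). Over all detected genes 17.1% were that much lower and 13.0% that much higher. Plakophilin 1 (Pkp1), of stratified epithelia, read 1011 and 256, 8.26-fold lower after background correction and 3.95-fold in the deposited signals. Perp, a desmosomal membrane protein, read 624 and 338, 2.96-fold lower (1.84-fold in the deposited signals). Desmocollin 1 (Dsc1), of suprabasal cells, read 246 and 129, at least 1.08-fold lower. Desmoplakin (Dsp), which ties keratins of every class to desmosomes, was within 2-fold at 1927 and 3463.

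Of 8 hemidesmosome genes, all detected, 1 was at least 2-fold lower and 3 higher (median 0.57). These are 12.5% and 37.5%, against 17.1% and 13.0% of all detected genes. Collagen XVII (Col17a1), of basal squamous cells, read 1268 and 112, at least 5.57-fold lower. The integrin subunits Itgb4 (3789 and 10496) and Itga6 (747 and 1859) were 2.46-fold and 2.20-fold higher. Plectin (Plec), which links keratins to these integrins, was within 2-fold at 6143 and 8737. Among 4 linker and keratin-binding genes, all detected, the count was 2 lower and 0 higher (median -1.17). Trim29, a keratin-binding protein of stratified epithelia, was 9.85-fold lower (966 and 228, the second at the edge of background). Periplakin (Ppl), of the cornified envelope, was 3.64-fold lower (919 and 401). In the deposited signals Trim29 and Ppl were 4.23-fold and 2.30-fold lower.

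Among intermediate filament genes of other classes, none was at least 2-fold higher. Of 13, 7 were detected, 2 of them at least 2-fold lower on the null-labelled array (median -0.36, or -0.11 at the bound). These 7 genes are too few to set the counts apart from the shares over all detected genes, 17.1% lower and 13.0% higher. Both encode muscle filament proteins: desmin (Des) read 10319 and 1905, 6.56-fold lower, and synemin (Synm) 3914 and 846, 6.41-fold lower.

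Genes of smooth muscle and of the pancreas were also lower on the null-labelled array beside the squamous keratins. Of 11 smooth muscle genes 10 were detected and all 10 were lower by 2-fold or more (9 by the bound, 8 by the lowest bound). Their median was -3.03, with summed signals over the list of 118212 and 29618. Mylk, Myh11, Smtn, Tagln and Lmod1 were 10.6-fold, 9.37-fold, 8.86-fold, 8.91-fold and 8.51-fold lower. In the deposited signals they were 8.24-fold, 7.33-fold, 6.83-fold, 5.25-fold and 4.14-fold lower. Lmod1 read 1089 and 263, the second little above background. Of 19 pancreatic acinar genes, all detected, 17 were lower by 2-fold or more (16 by the bound, 16 by the lowest bound). Their median was -5.51, or -4.67 at the bound, with summed signals of 130989 and 21454. On the null-labelled array 14 of them were below background. For comparison with both lists, the shares among all detected genes were 17.1%, 13.6% by the bound and 6.37% by the lowest bound. Pnliprp1, Try4, Cela2a, Pnlip and Rnase1 were at least 65.2-fold, 23.5-fold, 38.1-fold, 22.2-fold and 20.2-fold lower. Try4 and the Cela genes have close relatives, so their values are uncertain. The part of these cell types in the squamous keratin difference was not tested.

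Gastric cell types differed among themselves. Of 8 parietal cell genes 6 were detected, 5 at least 2-fold lower on the null-labelled array and 1 higher (0 by the lowest bound). Their median was -5.04, with summed signals over the list of 153261 and 5560. The proton pump subunit genes Atp4a (43340 and 265) and Atp4b (55622 and 469) were 328-fold and 181-fold lower. In the deposited signals they were 163-fold and 119-fold lower, and both first signals were near the ceiling. Of 7 genes of surface and neck mucous cells all were detected, 1 at least 2-fold lower and 3 higher (2 by the lowest bound; median 0.25). Over all detected genes 17.1% were at least 2-fold lower and 13.0% higher. The mucin Muc5ac read 39881 and 2669, 16.8-fold lower, and the gastrokine Gkn3 read 2368 and 47368, 19.3-fold higher. The brighter signal of each was near the ceiling. Of 6 genes of immune, endothelial and connective tissue cells 5 were detected and all 5 were within 2-fold (median -0.63), among them Cd74 (4546 and 3246) and Col3a1 (3805 and 2838).

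**Figure D3:**
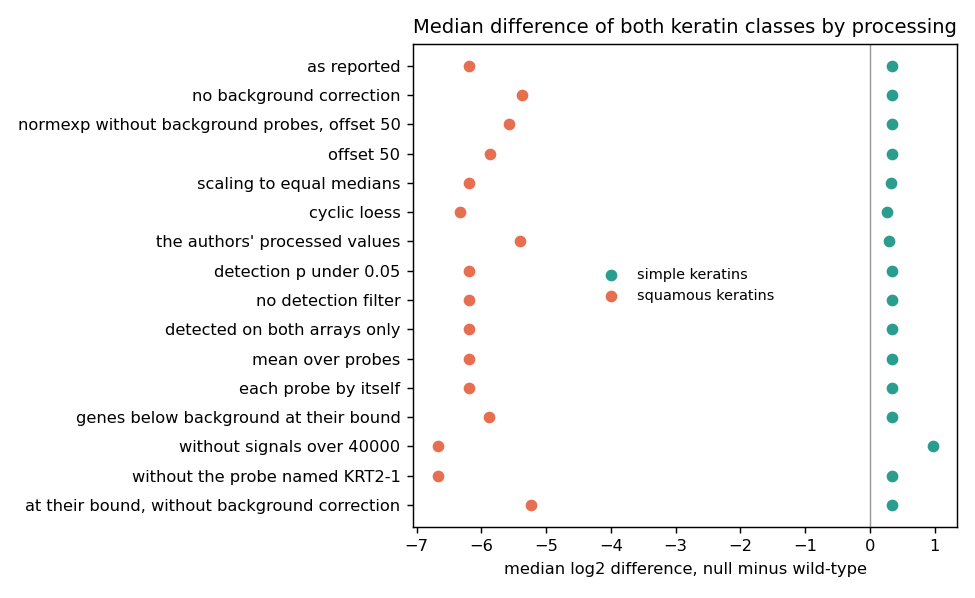
Median log2 difference, null-labelled minus wild-type-labelled array (x axis), of the simple keratins (green) and the squamous keratins (orange) as reported and under 15 alternatives (y axis). Simple medians ran from 0.27 to 0.97 and squamous medians from -6.67 to -5.23, so the classes stayed apart under each.

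**Figure D4:**
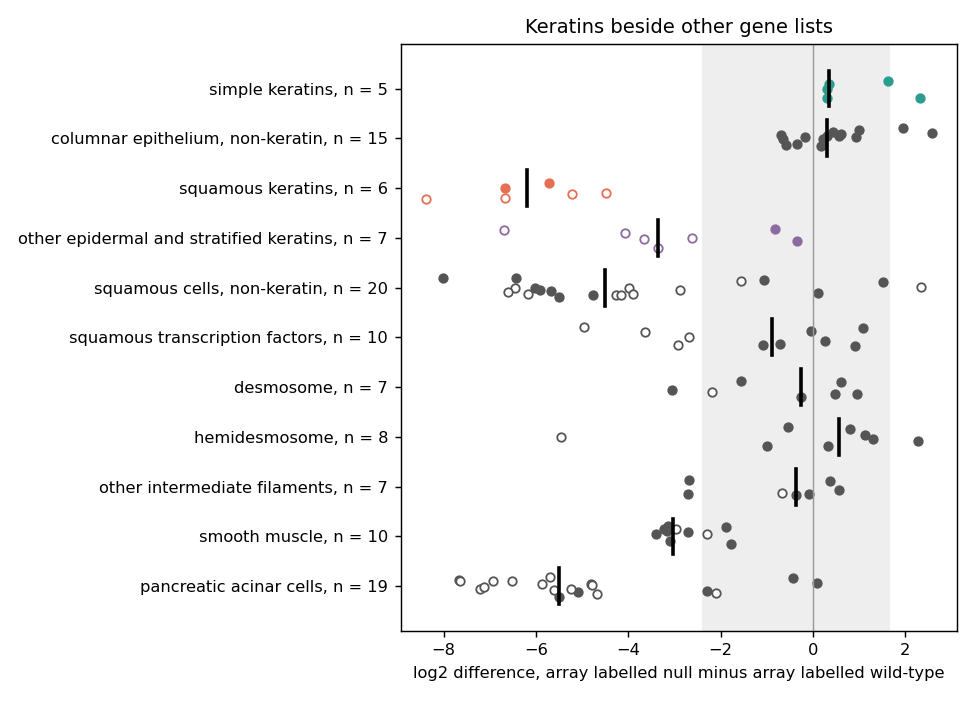
Log2 difference, null-labelled array minus wild-type-labelled array (x axis), of the detected members of each gene list (y axis). Points are genes, hollow where below background on 1 array, black bars are list medians and the grey band spans the 5th to 95th percentile of all detected genes (-2.39 to 1.64). Among the lists shown, the squamous keratins (median -6.20) lie nearest the acinar genes (-5.51) and the squamous cell markers other than keratins (-4.51). The parietal cell list, not drawn here, had a median of -5.04. The median of the squamous transcription factors (-0.89) is inside the band. The simple keratins (0.34) lie with the columnar list (0.31).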

How the data were processed

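The authors deposited linear probe intensity values for 2 biotin-labelled arrays, once as signals that were not normalized and once, per the values themselves, as the same intensity values times 1 factor per array (0.960 and 0.842). Bead summarisation and background subtraction are not given in the sources used here. Members and gene lists were chosen with earlier results of these data known.

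Signals were background-corrected with normexp in limma 3.58.1 (R 4.3.3), its parameters taken from the 1314 receptor probes because the files hold no control probes or detection p-values, with an offset of 16, then quantile-normalized and put on the log2 scale. Detection needed a share of background probes under 0.01. A gene took its probe with the highest mean. Symbols were matched to RefSeq (GRCm38.p6). Members were named if detected, and others by rule: from each list up to 5 detected genes ranked by size of difference, if past 2-fold, or the 2 brightest where fewer than 2 were. Lor, Ivl, Ly6d, Sfn, Klf5, Dsp and Plec fall outside it, and 1 gene that meets it is not reported here. The steps were tested on simulated arrays. Alternatives covered background, scaling, detection, probe choice, bounds and the ceiling, and 2 were added after the data were seen. The number of arrays limits the precision.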

Additional observations from a re-analysis of the deposited data

How the results depend on the processing

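No paired analysis was possible because each group has 1 array. Under 15 alternatives no keratin called 2-fold lower or higher changed direction, and the number at least 2-fold higher was 2 throughout. The number at least 2-fold lower, 11 as reported, was 2 over genes detected on both arrays, since 9 of the 11 were below background on the null-labelled array, and 12 with each probe counted by itself. The squamous median of -6.20 moved to -5.37 without background correction, to -5.57 with normexp fitted without background probes and to -5.41 in the authors' processed values. Its distance from the simple keratins, -6.54, was then -5.71, -5.92 and -5.71. At their bound without background correction the values were -5.23 and -5.58. Without genes over 40000 the simple median was 0.97 and the distance -7.64, as Krt8 and Krt10 drop out. Without the probe named KRT2-1 the squamous median was -6.67. Medians of the desmosome list ran from -0.80 to 0.29 and of the squamous transcription factors from -0.98 to 0.12, so neither has a settled sign. The median of the pancreatic acinar list ran from -5.65 to -2.29, the latter over genes detected on both arrays. For the squamous cell markers other than keratins it ran from -5.59 to -2.89. The number of all genes at least 2-fold lower and higher, 1586 and 1202 as reported, was 1005 and 669 without background correction, 1164 and 820 with normexp without background probes and 926 and 789 in the authors' values. Of all genes past 2-fold, 43.1% of those past 2-fold were higher as reported, 49.9% after scaling to equal medians, which also moved the median of all genes to 0.11, and 37.6% after cyclic loess. Low signals limit the dim keratins, and the ceiling limits Krt8 and Krt10.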
